A study of Mus musculus with 3 samples.

Results

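The cytotoxic granule genes followed here were Gzma, Gzmb, Gzmk, Prf1, Nkg7, Ctsw, Ifng and Fasl, 8 of the 22954 genes in the single-cell tables, chosen by name. All 8 were found in the tables, and their values were read in 19619 cells by marker-gated cell type and by library. The cells came from the lungs of 3 wild-type female C57BL6/J mice, 1 mouse for each of 3 groups, taken 5 months after 13 Gy to the thorax given from both sides. The CONV mouse was irradiated at a conventional dose rate. The CONV AsiDNA mouse had the same irradiation and also AsiDNA, a short double-stranded DNA coupled to cholesterol that occupies the DNA damage response as a decoy, injected into the peritoneum, first 2 daily doses of 100 mg/kg and then a dose of 200 mg/kg on the day of irradiation. The FLASH mouse was irradiated at an ultra-high dose rate. All 3 mice were irradiated, and lungs of unirradiated mice were not analysed here. With 1 mouse per group no test between groups was possible, and a difference between libraries cannot be told apart from a difference between single mice or single preparations. Whole lungs were dissociated with enzymes, so cells that survive this step are the ones described.

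Cytotoxic lymphocytes kill by emptying secretory granules onto a target cell. Perforin opens the target's membrane, and granzymes, which are serine proteases, enter and cut proteins inside it. In mice, natural killer (NK) cells are known to hold granzyme and perforin transcripts before they meet a target, whereas CD8 T cells gain them on activation. Fas ligand kills through the receptor Fas, and interferon gamma is the cytokine that these cells send to macrophages and to tissue cells.

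The value of a gene in a cell was an adjusted count, a whole number adjusted before deposition in a way not given in the sources read. A level is given as adjusted counts per 1000000 (CPM) of all adjusted counts in the same cells. The share of cells above 0 carries an exact 95% Clopper-Pearson interval, which covers the sampling of cells only. The summed adjusted counts were 23908890 after CONV, 26417388 after CONV AsiDNA and 23383510 after FLASH, from 6372, 6983 and 6267 cells before filtering. Of these, 6371, 6981 and 6267 cells were kept, and wherever 3 values follow each other they keep this order. Between 9 and 17 cell barcodes were shared by a pair of libraries. NK-gated cells lacked Cd3d, Cd3e and Cd3g and had at least 2 of 8 NK genes above 0. They numbered 71 after CONV, 262 after CONV AsiDNA and 194 after FLASH, which was 1.11% (0.871 to 1.40%), 3.75% (3.32 to 4.23%) and 3.10% (2.68 to 3.55%) of the cells. The CONV library thus had the fewest NK-gated cells. Effector CD8-gated cells numbered 120, 83 and 91, and gamma delta T-gated cells 175, 70 and 60. The gates held genes that they had not used: Klrd1, the CD94 chain of NK receptors, was above 0 in 87.3, 95.8 and 92.3% of NK-gated cells, and Trac, the T cell receptor alpha constant gene, in 0, 1.91 and 1.55%. Trbc2, a T cell receptor beta constant gene, was above 0 in 38.0, 31.7 and 40.7% of NK-gated cells. Trac in effector CD8-gated cells was above 0 in 75, 83.1 and 83.5%, and the NK adaptor Tyrobp was listed at 0 in all 3 libraries. A further 62 cells passed the NK gate but also held 3 or more markers of another cell class and were kept apart as mixed. Of these 62 cells, 55 had 3 or more genes of the monocyte list. Spn was above 0 in 58 of the 62, Ly6c2 in 56 and Ccr2 in 56, while the monocyte gene F13a1 was listed at 0 in all of them. Putting the mixed cells back moved no member's share among NK-gated cells beyond its interval.

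**Figure D1:**
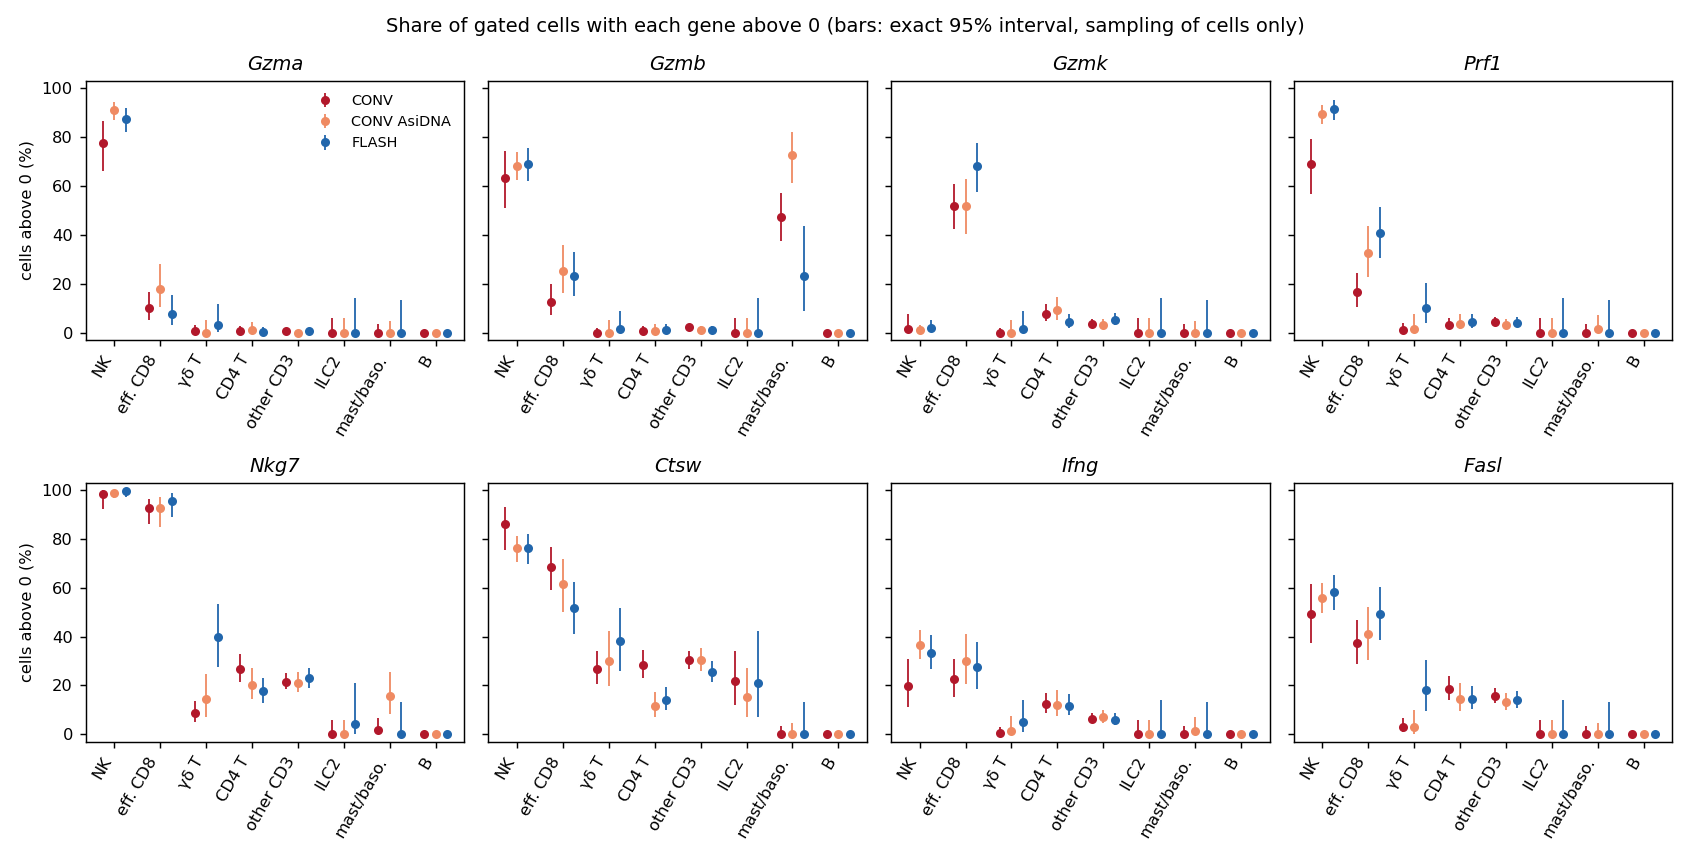
The plot gives, for each of the 8 genes, the share of gated cells above 0 (y axis, %) in 8 gated cell types (x axis) for CONV, CONV AsiDNA and FLASH; points are shares in 1 mouse and bars the exact 95% interval. Gzma and Prf1 were highest in NK-gated cells, Gzmk in effector CD8-gated cells, Gzmb was shared by NK-gated and mast cell or basophil-gated cells, and B-gated cells stayed at 0 for all 8.

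The transcripts lay almost entirely in lymphocytes and, for Gzmb, in mast cell or basophil-gated cells. All 8 genes were listed at 0 in each of 4063 B-gated cells, which had a median of 922, 1056 and 1074 genes above 0 against 1105, 1253 and 1252 in NK-gated cells. Over 9630 cells of the non-lymphoid classes other than mast cells and basophils, Gzma, Gzmb and Ifng were listed at 0, and Prf1 was above 0 in 7 cells, Fasl in 5, Nkg7 in 3, Gzmk in 2 and Ctsw in 1. The gating rule itself favours such low counts. Cells with Cd3d, Cd3e or Cd3g, or with at least 2 of the NK genes, could not enter the B or non-lymphoid classes. Whether the adjustment made before deposition had set low values to 0 was not tested. At least 1 of the 8 genes was above 0 in 526 of 527 NK-gated cells and in 283 of 294 effector CD8-gated cells. The median NK-gated cell had 5 of the 8 genes above 0 in every library. The median of effector CD8-gated cells was 3 in CONV and 4 in both other libraries.

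Most Gzma and Prf1 counts lay in NK-gated cells. NK-gated cells held 74.6% of all Gzma counts of the CONV library, 84.1% of the CONV AsiDNA library and 87.5% of the FLASH library, and 64.1, 79.0 and 78.3% of the Prf1 counts. The mixed cells of all lymphocyte gates, 151 in number, held 9.34, 9.51 and 10.1% of the Gzma counts. Their part of the Prf1 counts was 6.59, 9.72 and 9.13%. The other genes were spread more widely. NK-gated cells held 15.3, 52.0 and 39.5% of the Fasl counts and 13.7, 37.7 and 31.5% of the Ctsw counts, with most of the rest in T cells. Gzmk was almost absent from NK-gated cells, which held 0.943, 1.18 and 2.73% of its counts, against 47.8, 35.7 and 43.2% in effector CD8-gated cells. Gzmb was divided between NK-gated cells, with 32.4, 40.7 and 74.1% of its counts, and mast cell or basophil-gated cells, with 48.9, 45.0 and 6.85%.

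**Figure D2:**
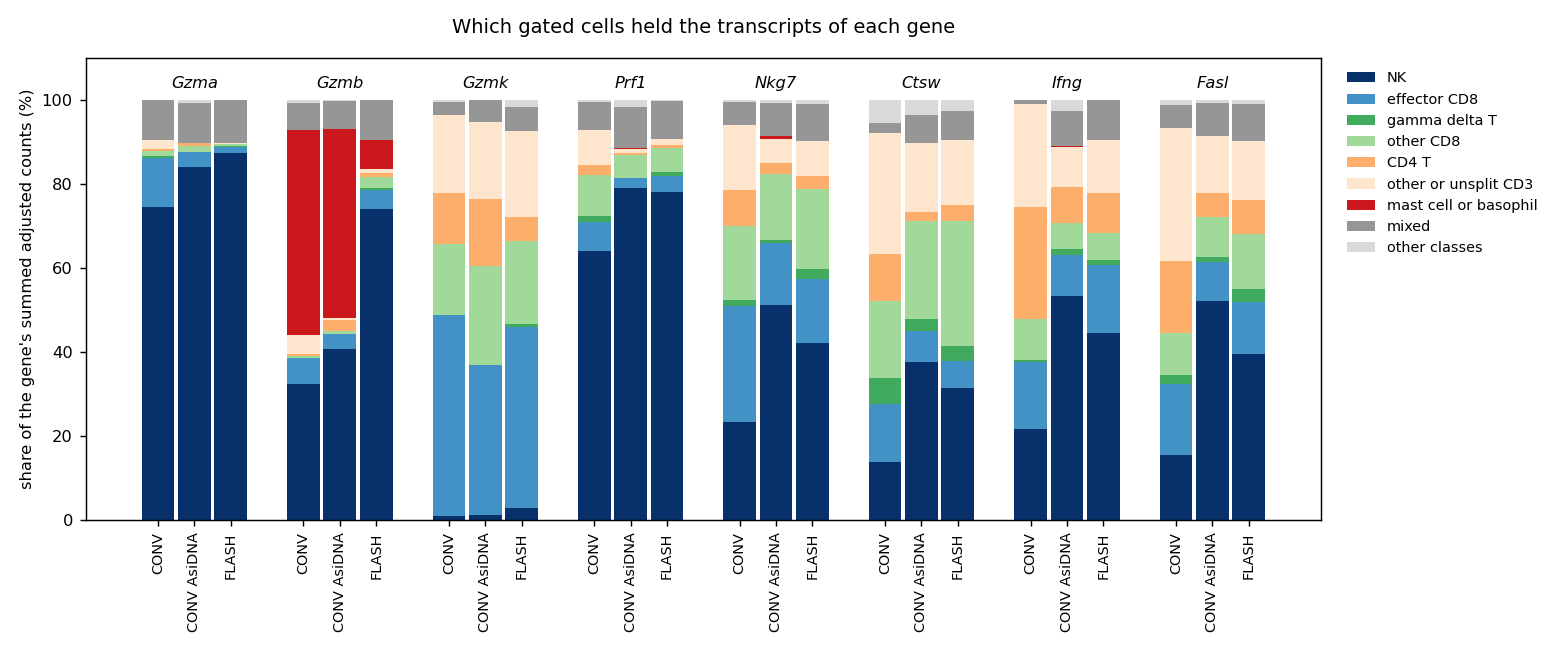
Stacked bars split the summed adjusted counts of each gene in each library (y axis, %) by the gated cell type that held them. NK-gated cells hold 74.6 to 87.5% of Gzma, effector CD8-gated cells 35.7 to 47.8% of Gzmk, and mast cell or basophil-gated cells 48.9% of Gzmb in CONV and 6.85% in FLASH.

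Gzma encodes granzyme A, a tryptase of the granule. It lies on chromosome 13, at chr13:113093825-113100981 on the minus strand of GRCm38, the assembly behind mm10. In NK-gated cells it was above 0 in 55 of 71 cells of CONV, 77.5% (66.0 to 86.5%), in 239 of 262 cells of CONV AsiDNA, 91.2% (87.1 to 94.4%), and in 170 of 194 cells of FLASH, 87.6% (82.2 to 91.9%). The CONV interval ended below the CONV AsiDNA interval and overlapped the FLASH interval. The level in NK-gated cells was 13667 CPM after CONV, 15684 after CONV AsiDNA and 16821 after FLASH. The 3 levels lay within 1.23 times of each other. The amount per cell was wide: among NK-gated cells above 0 the median was 50 adjusted counts after CONV, 51 after CONV AsiDNA and 57.5 after FLASH, and the highest cell had 120, 180 and 152. Cells above 30 adjusted counts made up 57.7, 69.5 and 70.1% of the NK-gated cells.

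**Figure D3:**
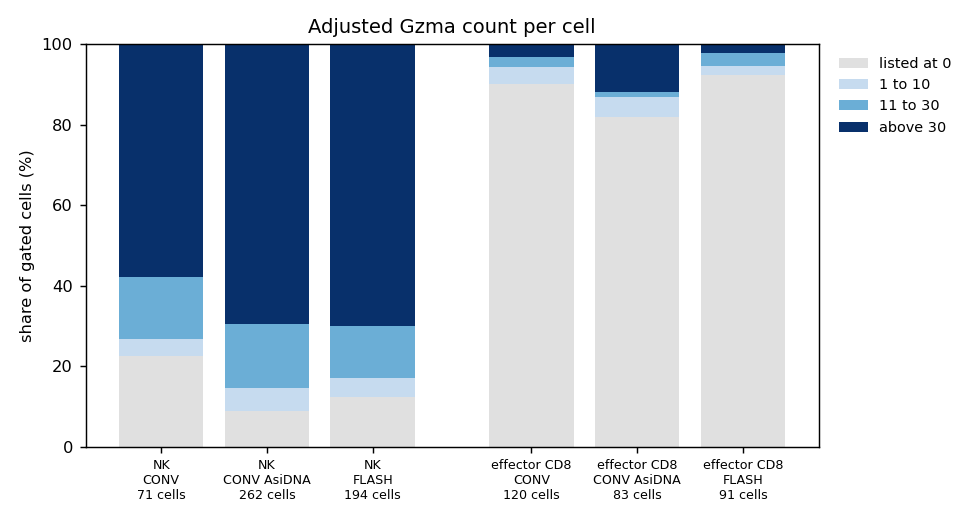
Stacked bars give the share of NK-gated and effector CD8-gated cells (y axis, %) of each library by adjusted Gzma count per cell. Above 30 counts lay 57.7 to 70.1% of NK-gated cells and 2.20 to 12% of effector CD8-gated cells.

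Prf1 encodes perforin and lies on chromosome 10, at chr10:61297833-61304680 on the plus strand. It was above 0 in 69.0% (56.9 to 79.5%) of NK-gated cells after CONV, 89.7% (85.4 to 93.1%) after CONV AsiDNA and 91.8% (87.0 to 95.2%) after FLASH. The CONV interval ended below both others. Its level in NK-gated cells was 1279 CPM after CONV, 1650 after CONV AsiDNA and 2019 after FLASH, a log2 ratio of CONV over FLASH of -0.65. Thinning each cell to 1000 adjusted counts kept the order of the shares, at 50.7, 72.5 and 75.3% for Prf1 and 74.6, 88.9 and 86.6% for Gzma. NK-gated cells of CONV also had fewer genes above 0, with a median of 1105 against 1253 and 1252. The part of this in the lower CONV shares of Prf1 and Gzma was not tested.

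Both genes were mostly above 0 in the same NK-gated cells. In cells with Gzma above 0, Prf1 was above 0 in 83.6% after CONV, 94.1% after CONV AsiDNA and 97.6% after FLASH. In cells with Gzma listed at 0 the shares were 18.8, 43.5 and 50.0%, of 16, 23 and 24 cells. Gzmb likewise was above 0 in 78.2, 73.6 and 78.2% of the cells with Gzma and in 2, 3 and 1 of those without it. Cells at 0 for Gzma differed in other genes as well. Tyrobp was above 0 in 3 of those 16 cells, 12 of 23 and 11 of 24, against 54 of 55, 232 of 239 and 167 of 170 of the cells with Gzma. Il7r, the interleukin 7 receptor, was above 0 in 11, 9 and 16 of the cells without Gzma and in 0, 3 and 4 of those with it. The residency genes Itga1 and Cxcr6, which mark group 1 innate lymphoid cells other than circulating NK cells, were above 0 in at least 1 of the pair in 11 of the 71 NK-gated cells of CONV, 5 of 262 in CONV AsiDNA and 6 of 194 in FLASH. Among these 22 cells Gzma was above 0 in 4 cells of CONV and in none of the other libraries. Without them the Gzma share was 85.0% (73.4 to 92.9%) after CONV, 93.0% (89.2 to 95.8%) after CONV AsiDNA and 90.4% (85.3 to 94.2%) after FLASH, so that all 3 intervals overlapped. The Prf1 share without them was 73.3% (60.3 to 83.9%), 91.1% (86.9 to 94.2%) and 93.6% (89.1 to 96.7%), and the CONV interval still ended below the others. Eomes, a transcription factor of mature NK cells that was one of the gate genes, was above 0 in 26.8% of NK-gated cells after CONV, 59.2% after CONV AsiDNA and 54.1% after FLASH. Among cells with Eomes above 0, which were 19, 155 and 105, Gzma was above 0 in 94.7, 94.8 and 93.3%. Prf1 was above 0 in 78.9% (54.4 to 93.9%), 91.0% (85.3 to 95%) and 97.1% (91.9 to 99.4%) of the same cells, and Ifng in 10.5% (1.30 to 33.1%), 35.5% (28.0 to 43.6%) and 37.1% (27.9 to 47.1%), with CONV the lowest in both and its intervals overlapping the others. The part of this make-up in the lower CONV shares was not tested.

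For the 3 granzymes and perforin, whose cells differed between the NK, CD8 and mast cell or basophil gates, the RefSeq sequence just before the start of each of the 4 genes (GRCm38.p6, 250 bases, 5′ to 3′ in the direction of the gene) is shown. Capitals mark 3 motifs read on both strands: AGGTGT, a site of the T-box factors to which Eomes and T-bet belong, TGTGGT, the Runx site, and TGANTCA, the AP-1 site. The windows are chr13:113100982-113101231 for Gzma, chr10:61297586-61297835 for Prf1, chr13:113180966-113181215 for Gzmk and chr14:56262335-56262584 for Gzmb, of which Prf1 is on the plus strand and the others on the minus strand.
Gzma: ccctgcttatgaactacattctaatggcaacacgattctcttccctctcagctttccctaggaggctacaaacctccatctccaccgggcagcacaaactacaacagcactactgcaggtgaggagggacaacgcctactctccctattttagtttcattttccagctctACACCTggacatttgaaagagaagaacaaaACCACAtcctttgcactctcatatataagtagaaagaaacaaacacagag
Prf1: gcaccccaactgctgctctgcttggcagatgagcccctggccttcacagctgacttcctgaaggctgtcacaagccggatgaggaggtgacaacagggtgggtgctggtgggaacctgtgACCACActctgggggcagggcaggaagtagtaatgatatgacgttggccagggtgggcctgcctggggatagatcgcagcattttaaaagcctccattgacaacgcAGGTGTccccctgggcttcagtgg
Gzmk: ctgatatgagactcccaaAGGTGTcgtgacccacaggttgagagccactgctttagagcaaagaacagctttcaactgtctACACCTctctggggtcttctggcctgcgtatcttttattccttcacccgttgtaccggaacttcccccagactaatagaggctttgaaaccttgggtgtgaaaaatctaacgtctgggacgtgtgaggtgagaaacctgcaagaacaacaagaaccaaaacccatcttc
Gzmb: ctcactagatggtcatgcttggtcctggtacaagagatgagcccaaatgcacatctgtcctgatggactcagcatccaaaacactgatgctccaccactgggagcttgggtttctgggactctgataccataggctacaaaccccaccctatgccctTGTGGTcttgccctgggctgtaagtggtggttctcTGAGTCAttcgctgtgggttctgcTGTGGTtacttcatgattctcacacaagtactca
The Gzma window held 1 AGGTGT, starting 80 bases before the start on the opposite strand, and 1 TGTGGT at 50 bases. The Prf1 window held the same pair of motifs, at 24 and 130 bases. The Gzmk window held AGGTGT at 232 and 169 bases and neither of the other motifs. The Gzmb window held TGTGGT at 93 and 34 bases and TGANTCA at 58 bases. Of the 7 members with a window in the promoter table, AGGTGT was found in 4 (Gzma, Gzmk, Prf1 and Nkg7), TGTGGT in 4 (Gzma, Gzmb, Prf1 and Nkg7) and TGANTCA in 1. No matches overlapped. The motifs were found in 11.8, 14 and 6.75% of all 32851 windows of this length. A match is a run of letters only. The RefSeq start and the start of the GENCODE M21 gene are 74 bases apart for Gzmb, 3 for Prf1 and 44943 for Gzmk, so the Gzmk window belongs to the RefSeq start only.

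Gzmk encodes granzyme K, lies at chr13:113171608-113225908 on the minus strand and neighbours Gzma, with 70.6 kb between the annotated genes, but its cells were different. It was above 0 in 51.7% (42.4 to 60.9%) of effector CD8-gated cells after CONV, 51.8% (40.6 to 62.9%) after CONV AsiDNA and 68.1% (57.5 to 77.5%) after FLASH. The 3 intervals overlapped. In NK-gated cells it was above 0 in 1 of 71, 3 of 262 and 4 of 194 cells. Gzma was the less frequent of the pair in the CD8 gate, with 10.0% (5.27 to 16.8%), 18.1% (10.5 to 28.0%) and 7.69% (3.15 to 15.2%) of effector CD8-gated cells above 0. In CD8 cells with Gzma above 0, Gzmk was above 0 in 4 of 12, 9 of 15 and 3 of 7 cells, and in CD8 cells without Gzma in 58 of 108, 34 of 68 and 59 of 84. Gzmb followed Gzma within the CD8 gate: it was above 0 in 8 of 12, 9 of 15 and 6 of 7 cells with Gzma, against 7 of 108, 12 of 68 and 15 of 84 without it. Prf1 was above 0 in 2 of 12, 5 of 15 and 4 of 7 cells with Gzma and in 18 of 108, 22 of 68 and 33 of 84 without it.

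Gzmb encodes granzyme B, which cuts after aspartate and activates caspases. In NK-gated cells it was above 0 in 63.4% (51.1 to 74.5%), 68.3% (62.3 to 73.9%) and 69.1% (62.1 to 75.5%), and its level was 1483 CPM after CONV, 1131 after CONV AsiDNA and 1209 after FLASH. These shares and levels lay close together. Mast cell or basophil-gated cells, found by Cpa3, Ms4a2, Fcer1a, Gata2, Cd200r3 and Mcpt8, numbered 108, 77 and 26. Gzmb was above 0 in 47.2% (37.5 to 57.1%) of them after CONV, 72.7% (61.4 to 82.3%) after CONV AsiDNA and 23.1% (8.97 to 43.6%) after FLASH, at 1373, 3725 and 774 CPM. The CONV AsiDNA interval lay above both others. The NK gene Ncr1 was listed at 0 in all of these cells, and so were Gzma, Gzmk, Ctsw and Fasl. The class was a mixture that changed between libraries. Cells with the mast cell proteases Mcpt4 or Cma1 above 0 and the basophil protease Mcpt8 at 0 numbered 96, 37 and 6, and Gzmb was above 0 in 46.9% (36.6 to 57.3%), 86.5% (71.2 to 95.5%) and 50.0% (11.8 to 88.2%) of them. Cells with Mcpt8 above 0 and both others at 0 numbered 3, 22 and 16, with Gzmb above 0 in 0, 9 and 1. The remaining 9, 18 and 4 cells, with both kinds of protease or neither, had Gzmb above 0 in 6, 15 and 2 and the highest Gzmb level of the 3 subsets, at 5114, 7412 and 2071 CPM. Among cells with the mast cell proteases alone Gzmb lay at 1054, 2681 and 1130 CPM, so that CONV AsiDNA was again the highest, while CONV was not above FLASH as it was in the whole class. Nkg7 was above 0 in 15.6% (8.32 to 25.6%) of the mast cell or basophil-gated cells of CONV AsiDNA, in 1.85% of those of CONV and in none of FLASH. It was listed at 0 in all cells with the mast cell proteases alone.

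Gzmb stands at chr14:56258838-56262260 in a run of granule protease genes that begins with Cma1 and holds both NK and mast cell genes. Of 15 protein-coding genes annotated there 11 were in the tables. Mcpt4, Mcpt8, Mcpt2, Cma2 and Ctsg were above 0 in mast cell or basophil-gated cells and at 0 in all NK-gated and effector CD8-gated cells. Cma1, the mast cell chymase gene, was above 0 in 95.4, 66.2 and 30.8% of mast cell or basophil-gated cells and also in 34 of 71, 138 of 262 and 115 of 194 NK-gated cells, while it was at 0 in all effector CD8-gated cells. Gzmb and Cma1 were therefore the genes of this run that were frequent in both classes. Gzmc, the next gene, was above 0 in 2, 0 and 2 NK-gated cells, Gzme in 1 cell of CONV, and Gzmf was listed at 0 throughout. None of 36 stretches of 50 bases from the last 400 bases of Gzmb transcripts was found in transcripts of another gene, so that reads from its neighbours are unlike it at this end. The same held for the other members apart from Ifng, where 11 of 69 stretches were also in the gene model Gm49751.

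**Figure D4:**
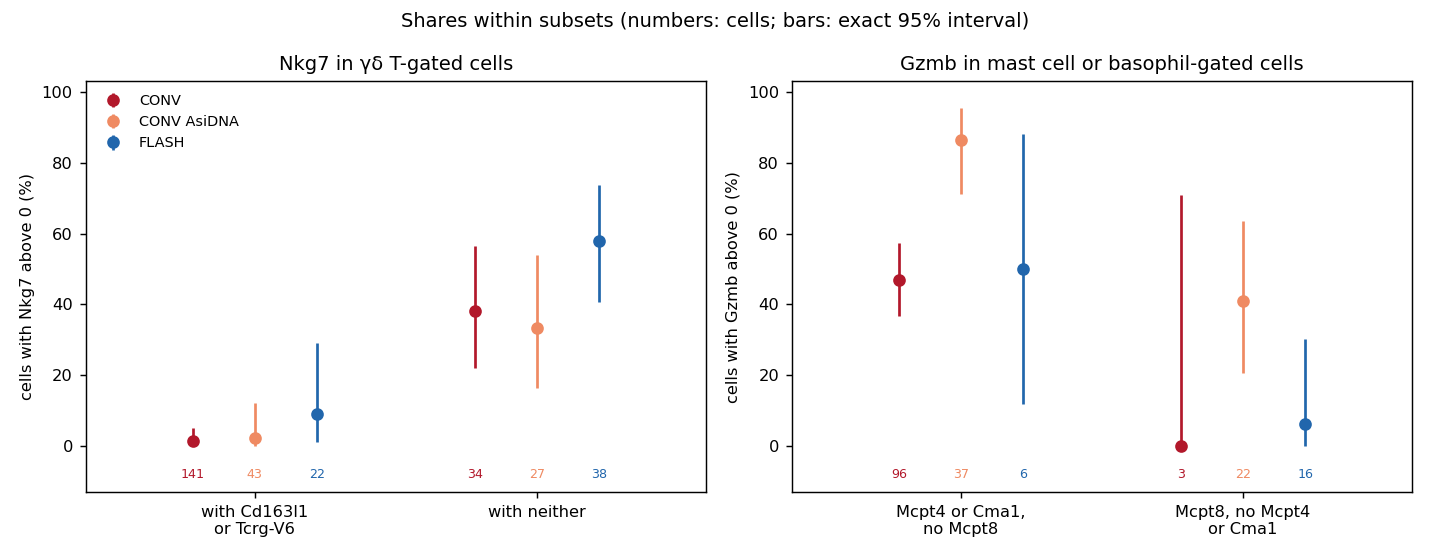
The left panel gives the share of gamma delta T-gated cells with Nkg7 above 0 (y axis, %) in cells with Cd163l1 or Tcrg-V6 and in cells with neither, and the right panel the share of mast cell or basophil-gated cells with Gzmb above 0 by their proteases; bars are exact 95% intervals and the numbers are cells. Nkg7 lay at 1.42 to 9.09% in the first subset and at 33.3 to 57.9% in the second, and Gzmb reached 86.5% in the Mcpt4 or Cma1 cells of CONV AsiDNA.

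Nkg7 encodes a membrane protein of cytotoxic granules that takes part in their release, and lies at chr7:43437073-43438249 on the plus strand. It was the member found in the largest share of both main classes. In NK-gated cells it was above 0 in 98.6, 98.9 and 99.5%, at 3282 CPM after CONV, 3895 after CONV AsiDNA and 3704 after FLASH. Among effector CD8-gated cells it was above 0 in 92.5, 92.8 and 95.6%, at 2079, 3223 and 2699 CPM. In CD4 T-gated cells the shares were 26.8, 20.1 and 17.6%.

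Ctsw encodes cathepsin W, a cysteine protease found in NK and CD8 T cells, and lies at chr19:5465043-5468507 on the minus strand. Its share of cells was highest in CONV in NK-gated, effector CD8-gated and CD4 T-gated cells, and highest in FLASH in gamma delta T-gated cells. In CD3 cells outside the CD4, CD8 and gamma delta gates it was 30.2, 30.4 and 25.5%, and over all cells of a library 9.75, 9.17 and 10.1%, so that CONV was the highest in neither. In NK-gated cells it was above 0 in 85.9% (75.6 to 93.0%) after CONV, 76.3% (70.7 to 81.3%) after CONV AsiDNA and 76.3% (69.7 to 82.1%) after FLASH, at 827, 580 and 610 CPM. In effector CD8-gated cells it was above 0 in 68.3% (59.2 to 76.5%), 61.4% (50.1 to 71.9%) and 51.6% (40.9 to 62.3%), at 447, 319 and 245 CPM. The intervals overlapped in both classes. In CD4 T-gated cells the shares were 28.4% (23.0 to 34.3%), 11.6% (7.12 to 17.5%) and 14.2% (9.95 to 19.3%), and the CONV interval lay above both others. In gamma delta T-gated cells the shares were 26.9, 30 and 38.3%, and in ILC2-gated cells, where it was the member most often above 0, they were 21.7, 15.3 and 20.8%.

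Ifng encodes interferon gamma and lies at chr10:118441046-118445892 on the plus strand. In NK-gated cells it was above 0 in 19.7% (11.2 to 30.9%) after CONV, 36.6% (30.8 to 42.8%) after CONV AsiDNA and 33.5% (26.9 to 40.6%) after FLASH. CONV was the lowest, with its upper bound just above the lower bound of CONV AsiDNA. The levels were 258, 317 and 310 CPM, closer together than the shares, and the median of the CONV cells above 0 was 3 adjusted counts against 1.5 and 2. In effector CD8-gated cells Ifng was above 0 in 22.5% (15.4 to 31.0%), 30.1% (20.5 to 41.2%) and 27.5% (18.6 to 37.8%), and in CD4 T-gated cells in 12.5, 12.2 and 11.6%. In the CONV library CD4 T-gated cells held 26.6% of the Ifng counts, more than the 21.7% of the NK-gated cells, whereas NK-gated cells held the larger share in both other libraries, 53.3 and 44.5%.

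Fasl encodes Fas ligand and lies at chr1:161780689-161788495 on the minus strand. Its transcript was above 0 in 49.3% (37.2 to 61.4%), 55.7% (49.5 to 61.8%) and 58.2% (51.0 to 65.3%) of NK-gated cells, and in 37.5% (28.8 to 46.8%), 41% (30.3 to 52.3%) and 49.5% (38.8 to 60.1%) of effector CD8-gated cells. The intervals overlapped within each class. Its receptor Fas was above 0 in 61.3, 59.8 and 61.0% of endothelial-gated cells, the highest of 14 classes compared, and in 25.7, 32.4 and 25.1% of stromal-gated cells. In alveolar macrophage-gated cells Fas was above 0 in 4.47% after CONV, 16.6% after CONV AsiDNA and 16.4% after FLASH. These cells lay mainly in different clusters by library. A cluster that was 91.9% alveolar macrophage-gated held 954, 215 and 121 cells, and another, all of this class, held 66, 441 and 346. Whether the Fas shares differed within a cluster was not tested. Ifngr1, the ligand-binding chain of the interferon gamma receptor, was above 0 in 87.0, 93.2 and 93.3% of monocyte-gated cells and in 95.8, 95 and 95.4% of NK-gated cells. In stromal-gated cells the Ifngr1 shares were 38.9, 56.6 and 70.3%. Ifngr2, the signalling chain, was above 0 in 44.4, 54.3 and 53.1% of monocyte-gated cells, while in NK-gated cells it was listed at 0 except in 0.515% of FLASH cells. Whether the adjustment made before deposition had set low values to 0 was not tested, so the listing at 0 does not show that the chain was lacking.

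Levels in NK-gated cells were next compared between libraries. A member was called past 2-fold when its log2 ratio of CPM plus 10 was at least 1 in size and it had at least 20 summed adjusted counts in the class. Of 7 members tested, all but Gzmk, 0 were past 2-fold for CONV over CONV AsiDNA, where 16.5% of 6341 genes were. For CONV over FLASH 0 of 7 were past 2-fold against 18.2% of all genes, and for CONV AsiDNA over FLASH 0 of 7 against 4.18%. With 7 members a count of 0 lies near these shares and is not read as a result about them. The log2 ratios of CONV over FLASH ran from -0.65 for Prf1 to 0.43 for Ctsw, with a median of -0.20 beside -0.15 over all genes. CONV was below FLASH for Gzma, Prf1, Nkg7, Ifng and Fasl and above it for Gzmb and Ctsw, and the same 5 and 2 genes lay below and above for CONV over CONV AsiDNA. These comparisons share the CONV cells. With each cell thinned to 1000 counts Ifng was past 2-fold in both, at -1.41 and -1.49 on the log2 scale, where 20.7 and 22.3% of all genes were, and the share of CONV cells above 0 was 8.45% against 17.9 and 19.1%. Among the NK-gated cells with Eomes the Ifng ratios were -2.88 and -2.73, where 29.2 and 29.9% of all genes were past 2-fold, but the CONV level there rests on 2 of 19 cells with 1 adjusted count each. In the NK-gated cells without Eomes Ifng lay at 338, 295 and 322 CPM, with CONV the highest.

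**Figure D5:**
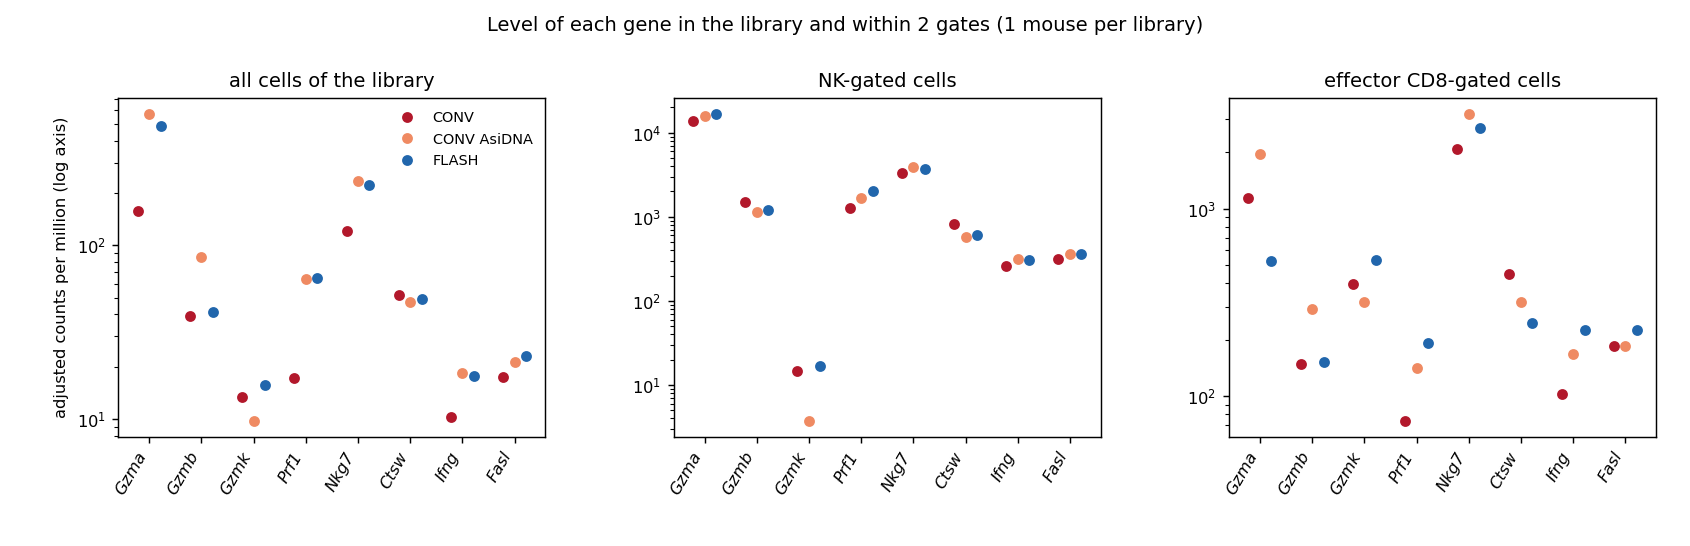
Points give the level of each gene in CPM on a log axis, in all cells of a library (left), in NK-gated cells (middle) and in effector CD8-gated cells (right), for 1 mouse per group. Gzma in all cells lay at 158, 574 and 485 CPM, and within NK-gated cells at 13667 to 16821 CPM.

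Over the whole library Gzma and Prf1 differed far more than within NK-gated cells. The Gzma level of all cells was 158 CPM after CONV, 574 after CONV AsiDNA and 485 after FLASH, so that CONV AsiDNA was 3.64 times and FLASH 3.08 times as high as CONV. The share of NK-gated cells was 3.37 and 2.78 times as high, and the level within NK-gated cells 1.15 and 1.23 times. Prf1 lay at 17.2, 64.3 and 65.1 CPM in the libraries, 3.75 and 3.80 times as high, with 1.29 and 1.58 times within NK-gated cells. Nkg7, with fewer of its counts in NK-gated cells, lay at 121, 234 and 222 CPM. Ctsw did not follow the NK-gated cells, at 51.9, 47.3 and 48.8 CPM. Gzmb lay at 39.3, 85.6 and 41.2 CPM, and CONV and FLASH were alike although their counts came from different cells, 48.9% from mast cell or basophil-gated cells in CONV and 74.1% from NK-gated cells in FLASH. Fewer NK cells in the lung and a smaller yield of them from the tissue cannot be told apart.

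Among effector CD8-gated cells 3 of 8 members were past 2-fold for CONV over FLASH, where 10.3% of 5083 genes were, 1 of them higher, against 2.93% of all genes, and 2 lower, against 7.34%. The count was 0 of 8 for CONV over CONV AsiDNA, against 9.72%, and 1 of 8 for CONV AsiDNA over FLASH, against 7.12%. Prf1 was above 0 in 16.7% (10.5 to 24.6%) of the cells after CONV, 32.5% (22.6 to 43.7%) after CONV AsiDNA and 40.7% (30.5 to 51.5%) after FLASH, at 73.2, 140 and 192 CPM. The CONV interval ended below the FLASH interval, and the log2 ratio of CONV over FLASH was -1.28. Thinning each cell to 1000 counts gave 6.67, 6.02 and 16.5% and a log2 ratio of -0.95, and adding 50 CPM gave -0.97. Ifng had a log2 ratio of -1.07 for CONV over FLASH, from 102 and 225 CPM, which rests on 27 and 25 cells above 0. It was not past 2-fold with scaling by the median gene (-0.89, when Ctsw was called in its place), with 50 CPM added in place of 10 (-0.86), without dividing cells (-0.93), after thinning (-0.37) or without cells of 2 or more NK markers (-0.85). Gzma had 1146 CPM after CONV, 1969 after CONV AsiDNA and 524 after FLASH, with log2 ratios of 1.11 for CONV over FLASH and 1.89 for CONV AsiDNA over FLASH. It rests on 12, 15 and 7 cells, of which 4, 10 and 2 were above 30 adjusted counts. Of the 12, 15 and 7 cells 3, 4 and 2 were dividing, with 2 or more of Mki67, Top2a, Birc5 and Cdk1 above 0, and without dividing cells the log2 ratio of Gzma for CONV over FLASH was 0.20. It was also under 2-fold with Cd8b1 required (0.78), with mixed cells put back (0.76), as a mean over cells (0.97), after thinning (0.94) and without cells of 2 or more NK markers (0.99). For CONV AsiDNA over FLASH Gzma stayed past 2-fold in every setting with a value, at 1.39 to 2.05. For CONV over CONV AsiDNA it was -0.78, and came past 2-fold without dividing cells (-1.85), with Cd8b1 required (-1.11) and without cells of 2 or more NK markers (-1.07). Gzmb was above 0 in 12.5% (7.17 to 19.8%), 25.3% (16.4 to 36.0%) and 23.1% (14.9 to 33.1%), at 149, 291 and 151 CPM. Its log2 ratio of CONV over CONV AsiDNA was -0.92, and it too came past 2-fold in these settings, at -1.06, -1.03 and -1.31. With each cell thinned to 1000 counts 0 of 8 members were past 2-fold for CONV over FLASH, where 14.2% of 2058 genes were.

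The CD8 gate also differed in its make-up. Cells with the residency integrins Itgae or Itga1 above 0 numbered 33 of 120 after CONV, 5 of 83 after CONV AsiDNA and 6 of 91 after FLASH. Prf1 was above 0 in 7 of those 33 cells, 0 of 5 and 1 of 6, and Ctsw in 26, 2 and 3. Within the 87, 78 and 85 cells without these integrins Prf1 was above 0 in 13, 27 and 36 cells, and Ctsw in 56, 49 and 44. CONV had the fewest Prf1 cells among those without the integrins. Within CONV the Prf1 share was 21.2% (8.98 to 38.9%) with the integrins and 14.9% (8.20 to 24.2%) without, with overlapping intervals. The part of this make-up in the lower CONV share of Prf1 was not tested.

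Gamma delta T-gated cells were less uniform as a gate. Trdc, the delta constant gene and one of the gate genes, was above 0 in 96.6, 91.4 and 95% of them, but Trac was above 0 in 22.9, 18.6 and 33.3% and Trbc2 in 80, 91.4 and 85%, so that the gate is named by its rule only. At least 1 member was above 0 in 51 of 175 cells after CONV, 23 of 70 after CONV AsiDNA and 32 of 60 after FLASH. Nkg7 was above 0 in 15 of 175 cells, 8.57% (4.88 to 13.7%), 10 of 70, 14.3% (7.07 to 24.7%), and 24 of 60, 40.0% (27.6 to 53.5%), at 82.3, 195 and 563 CPM. The FLASH interval lay above both others. It also did so in the 135, 57 and 40 cells with Trac at 0, where Nkg7 was above 0 in 9.63% (5.23 to 15.9%), 15.8% (7.48 to 27.9%) and 47.5% (31.5 to 63.9%). Prf1 was above 0 in 2, 1 and 6 cells, Fasl in 5, 2 and 11, Ifng in 1, 1 and 3, and Gzma in 1, 0 and 2. For CONV over FLASH 4 of 5 members tested were past 2-fold, all lower in CONV (Gzma -2.07, Prf1 -1.84, Nkg7 -2.64 and Fasl -1.77 on the log2 scale), where 16.1% of 5344 genes were past 2-fold and 5.39% were lower. For CONV over CONV AsiDNA 2 of 5 were past 2-fold, against 11.2%, and for CONV AsiDNA over FLASH 4 of 5, against 13.1%, and both counts include Gzma, which was listed at 0 in CONV AsiDNA. These counts are not read against the shares of all genes, since Prf1, with 6, 1 and 13 summed counts, and Fasl, with 9, 6 and 16, reached the minimum of 20 only through FLASH, where they were highest.

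The gamma delta gate held cells of different kinds in different proportions. Cells with Cd163l1 or Tcrg-V6 above 0, genes of the interleukin 17-producing lineage, numbered 141 of 175 after CONV, 43 of 70 after CONV AsiDNA and 22 of 60 after FLASH. Gzma, Gzmb, Gzmk and Prf1 were listed at 0 in all 206 of them, and Nkg7 was above 0 in 2, 1 and 2. In the 34, 27 and 38 cells with neither gene, Nkg7 was above 0 in 38.2% (22.2 to 56.4%), 33.3% (16.5 to 54.0%) and 57.9% (40.8 to 73.7%). These 3 intervals overlapped, and the log2 ratio of CONV over FLASH was -1.13 for Nkg7, -0.82 for Prf1 and -0.68 for Gzma in place of -2.64, -1.84 and -2.07. For CONV AsiDNA over FLASH Nkg7 moved from -1.49 to -0.77, but Gzma from -4.27 to -4.92 and Prf1 from -2.38 to -2.41. For CONV over CONV AsiDNA Nkg7 moved from -1.15 to -0.35, but Gzma from 2.19 to 4.24 and Prf1 from 0.54 to 1.58. The Gzma and Prf1 ratios rest on few cells, and Gzma was listed at 0 in CONV AsiDNA.

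The other genes of the pathway were read from 8 lists of 51 genes, of which 48 were in the tables. In NK-gated cells 34 of them were tested. For CONV over CONV AsiDNA 2 were past 2-fold higher and 2 lower, where 3.63 and 12.9% of all genes were. For CONV over FLASH 1 was higher and 3 were lower, against 4.24 and 13.9%. Genes past 2-fold in the same direction against both other libraries were Gzmc, Ctsc and Calr. Ctsc, which encodes cathepsin C, the protease that activates granzymes by trimming their ends, was listed at 0 in CONV and above 0 in 8.78 and 12.4% of the NK-gated cells of CONV AsiDNA and FLASH. Calr, the calcium-binding chaperone calreticulin, which is also stored in the granules, was above 0 in 12.7, 26.0 and 31.4%, at 87.5, 186 and 196 CPM. Its log2 ratios of CONV over CONV AsiDNA and over FLASH were -1.01 and -1.08, close to the 2-fold limit. The median gene of the class lay at -0.13 and -0.15. Gzmc was higher in CONV at 122 CPM against 0 and 5.08 CPM, from 2 cells. With 25, 0 and 3 summed counts it reached the minimum of 20 only through CONV, so its call is not read against the share of all genes. Among effector CD8-gated cells 32 pathway genes were tested, 0 were higher in CONV than in CONV AsiDNA or FLASH, where 3.42 and 2.93% of all genes were, and 3 and 4 were lower, where 6.3 and 7.34% of all genes were. Calr was again among those past 2-fold against both, at 54.9, 133 and 202 CPM, and so was the chemokine gene Ccl3, listed at 0 in CONV. For Ctsc and Ccl3, too, whether the adjustment made before deposition had set low values to 0 was not tested. Their listing at 0 in CONV does not show that the transcripts were lacking. The lower genes also held Serpinb1a, with 6, 14 and 3 summed counts, and Zeb2, with 9, 2 and 37, which reached the minimum only through the library where they were highest.

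Among the granule inhibitors, Serpinb9, which blocks granzyme B and guards the killer cell, was above 0 in 84.5, 83.2 and 79.4% of NK-gated cells and in 28.3, 22.9 and 24.2% of effector CD8-gated cells. Srgn, the proteoglycan serglycin on which granule contents are packed, was above 0 in 83.1, 73.7 and 83.0% of NK-gated cells and 87.5, 80.7 and 81.3% of effector CD8-gated cells. Neither was past 2-fold between libraries in these classes. Cst7, the cystatin F gene, an inhibitor of the cathepsins that process granzymes, was above 0 in 33.8, 45.4 and 53.1% of NK-gated cells and in 30, 45.8 and 50.5% of effector CD8-gated cells. CONV was the lowest in both classes, but Cst7 was not past 2-fold between libraries in either of them.

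The genes most like each member over 60 points, each a class in 1 library with at least 20 cells, the mixed and the unassigned cells among them, were taken from 15759 genes by Pearson's r of the log2 level. The points share their libraries and, in part, their class gates, so r is a description. Gzma was most like Prf1 (r = 0.97), Klre1 (0.94) and Tbx21 (0.94), and Prf1 most like Klre1, Gzma and Tbx21. Gzmb was most like Cma1 (0.86), Sytl3 (0.85) and Ccl4 (0.75). Gzmk was most like the T cell genes Cd6 (0.91), Themis (0.91) and Sh2d1a (0.90). Nkg7 was most like Fasl (0.97), Ms4a4b and Gm2682, and Ctsw most like Il2rb (0.98), Sh2d2a and Txk. Ifng was most like Fasl (0.96), Tbx21 and Gm14029, and Fasl most like Tbx21 (0.97), Eomes and Nkg7. Among the members themselves r was lowest between Gzmb and Gzmk (0.47). Klre1 and Eomes belong to the NK gate.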

How the data were processed

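Single-cell 3′ RNA libraries (10x Genomics v3.1) were read from 3 deposited tables, 1 per mouse. Cell Ranger 6.0.0 and mm10 are named in the submitters' processing notes. The deposited values were on a natural log scale, each equal within 1e-06 to the log of a whole number increased by 1. How the authors adjusted them for depth, or removed background, is a step not given in the sources read. These values were returned to whole numbers, called adjusted counts. They are not raw counts, so no count model was fitted, although the design had allowed for raw counts. Cells with under 200 genes above 0 were removed (3 of 19622). Another 4 tables, holding 12 per-sample columns and the output of comparisons (fold changes and p-values), were not used, since their identifiers are not mouse genes.

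Cells were gated by markers that include none of the 8 members. Gamma delta T-gated cells had CD3 and any of Trdc, Trdv4, Tcrg-V6 and Cd163l1, with Cd4 and Cd8b1 at 0. CD8 cells had CD3 and Cd8a or Cd8b1 with Cd4 at 0. They were effector with Lef1, Ccr7 and a further gene, not reported here, at 0 and with any of Ccl5, Cxcr3, Cxcr6, Itgae, Cx3cr1, Klrg1 and Id2. CD8 cells outside that gate are not described here. Other classes needed at least 3 of their markers, except mesothelial cells. No doublet caller was run. Ratios were log2 of CPM plus 10, for genes with at least 20 summed adjusted counts. The ratio code was tested on simulated data. Named genes were the members, the 3 most alike genes per member, gate and subset markers, genes near Gzmb, and some pathway genes. Pathway genes named for their calls were those past 2-fold between CONV and both other libraries in 1 direction. Serpinb1a and Zeb2 were named for their low counts. Fas, Ifngr1, Ifngr2, Serpinb9, Srgn and Cst7 were named without such a call. Members and lists were chosen with earlier results of these data known. Positions are from GENCODE M21, and promoter windows from RefSeq (7 of 8 members, Ctsw not among them). Alternatives changed gates, thinning, filters, scaling and the value added. Python 3.11.15, scipy 1.17.1, numpy 2.4.6, scanpy 1.11.5, pandas 2.3.3, leidenalg 0.10.2 and matplotlib 3.10.9 were used.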

Additional observations from a re-analysis of the deposited data

Results flagged for a closer look

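Gzma lay in opposite directions in a pair of cell types for CONV over FLASH. The log2 ratio was 1.11 in effector CD8-gated cells and -2.07 in gamma delta T-gated cells, both past 2-fold. The difference was not tested. It rests on 12 and 7 cells above 0 in the CD8 gate and on 1 and 2 cells in the gamma delta gate. In gamma delta T-gated cells without Cd163l1 or Tcrg-V6 the ratio was -0.68, and without dividing cells the ratio in the CD8 gate was 0.20, both under 2-fold.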

How the results depend on the processing

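No paired analysis was possible because each group has 1 library. Of 120 counts of members past 2-fold under an alternative, 98 stayed within 1.5 times of the reported count, and of 792 log2 ratios of the members tested 25 fell under 2-fold, 16 came past it and none that was past 2-fold changed sign. Of 402 shares of cells above 0, 70 moved beyond their interval, most of them with thinning. In brackets are the shares of all genes past 2-fold under the same setting. Thinning gave 1 and 1 of 7 in NK-gated cells (20.7 and 22.3%; CONV over CONV AsiDNA and over FLASH, 0 reported), 0 and 2 of 8 in effector CD8-gated cells (14.2 and 12.9%; CONV over FLASH, 3 reported, and CONV AsiDNA over FLASH, 1 reported), and 0, 2 and 2 of only 2 members tested in gamma delta T-gated cells (16.7, 22.7 and 20.8%; CONV over CONV AsiDNA, CONV over FLASH and CONV AsiDNA over FLASH, 2, 4 and 4 of 5 reported). Adding 50 CPM gave 1 of 8 (1.48%) for CONV over FLASH in effector CD8-gated cells, and 0 and 2 of 5 (2.11 and 4.02%) for CONV over CONV AsiDNA and over FLASH in gamma delta T-gated cells. A minimum of 50 counts gave 2 of 3 tested in gamma delta T-gated cells for CONV over FLASH (12.6%) and for CONV AsiDNA over FLASH (8.64%), and a minimum of 1 count gave 7 of 8 for CONV over FLASH (14.6%). In effector CD8-gated cells, requiring Cd8b1 gave 2 (9.74%) and leaving out dividing cells 2 (10%) for CONV over CONV AsiDNA, where 0 was reported, and the latter gave 1 (11.5%) for CONV over FLASH. Chosen after seeing the data, NK-gated cells with Eomes gave 1 and 1 (29.2 and 29.9%; Ifng), effector CD8-gated cells without those of 2 or more NK markers 2 (9.88%) against CONV AsiDNA and 1 (10.4%) against FLASH, and gamma delta T-gated cells without Cd163l1 or Tcrg-V6 1 (15.4%) for CONV over FLASH and 2 (14.5%) for CONV AsiDNA over FLASH. The cause was not tested. The median gene shifted by -0.13 and -0.15 in NK-gated, -0.10 and -0.15 in effector CD8-gated (CONV over CONV AsiDNA and over FLASH) and 0.13 in gamma delta T-gated cells (CONV over FLASH). Leiden clusters gave no value for effector CD8-gated or gamma delta T-gated cells, since no cluster was mostly of either.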

Other observations

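CD4 T-gated cells were split by Foxp3, the regulatory T cell factor. Pooled over the 3 mice, 82 cells had Foxp3 above 0 and 572 had it at 0. The shares that follow are not given by library, so differences between the mice can enter them. Nkg7 was above 0 in 4.88% (1.34 to 12%) of the cells with Foxp3 and 24.3% (20.8 to 28.0%) of those without, Fasl in 2.44% (0.297 to 8.53%) and 18.2% (15.1 to 21.6%), and Ifng in 3.66% (0.761 to 10.3%) and 13.3% (10.6 to 16.3%). Gzmk was listed at 0 in all cells with Foxp3 and was above 0 in 45 without it. The intervals, which cover the sampling of cells only, overlapped for Ctsw, above 0 in 9 and 116 cells, and for the rarer Gzma (0 and 5 cells), Gzmb (2 and 4) and Prf1 (0 and 24).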
